A study of Sus scrofa with 12 samples.

Results

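The interferon genes of the sow endometrium were followed across 4 dietary groups. The list held 41 gene symbols, among them 1 interferon ligand (IFNA1), both chains of the type I interferon receptor, 5 transcription factors, 6 sensors of nucleic acid and 27 interferon-induced genes. A gene was taken when its symbol in the deposited table was the same as a listed one, with no use of its values. Of the 20674 genes in the table, 40 were matched this way, and 39 of them were among the 15351 genes with enough reads for testing. XAF1, a gene of apoptosis control, had 0 reads in each of the 12 libraries, and IFIT5 was not found under that symbol.

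The samples were endometrium of Landrace × Yorkshire sows of matched parity, taken after a feeding trial of 114 days that began at breeding. The groups were L − N (low-fiber diet, 3.73% crude fiber), L + N (the same diet with 0.05% N-carbamylglutamate, NCG), H − N (high-fiber diet, 7.46% crude fiber) and H + N (that diet with 0.05% NCG), with 3 libraries in each. NCG is an analog of N-acetylglutamate, the activator of arginine synthesis, and the effects of dietary fiber (DF) and of NCG were compared in the study to learn how both act on the uterus. The labels do not say whether the libraries are separate sows, so that the p-values measure the spread between these libraries. The tissue is a mixture, and in such bulk RNA fewer cells of a type and less RNA per cell cannot be told apart.

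Type I interferons bind the receptor IFNAR1 and IFNAR2, whose kinases activate STAT2. With IRF9 it is part of the complex ISGF3, which binds the promoters of interferon-stimulated genes and raises the proteins that detect viral RNA, block its translation or mark proteins with ISG15. In the pregnant pig, interferons from the conceptus reach the endometrium early in gestation and interferon-stimulated genes are induced in the stroma, while interferon epsilon is a ligand made by the epithelium of the reproductive tract without infection.

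The library H − N replicate 3 stood apart from the other 11 for these genes. It had the highest level of 32 of the 39 tested genes, which is 82.1%, while it had the highest level of 10.3% of all genes tested. Over the 39 genes, its median deviation from each gene's median over the libraries was 1.52 on the log2 scale, and that of the other libraries ran from −0.61 to 0.56. The lowest was L − N replicate 1, which held the lowest value of 22 of the 39 genes. Among the other 11 libraries, L − N replicate 3 had the highest value of 20 genes. Replicates 1 and 3 of the L − N group thus lay at opposite ends of the remaining range, as the plot of all genes by library shows. The total counts were 14369781 to 19309724 per library. Markers of the labelled tissue were present throughout, with 7 stromal genes summing to 22770 to 50990 CPM and 8 epithelial genes to 1230 to 2292, while 7 trophoblast markers, of which 2 were at 0 in every library, summed to 28.8 to 58.8. The 6 smooth muscle markers were all highest in L − N replicate 1, summing to 5197 CPM there and to 797 to 2001 elsewhere. The 5 erythroid markers summed to 754 CPM in that library and to 26.7 to 515 elsewhere. The part of these cells in the levels of the interferon genes was not tested.

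**Figure D1:**
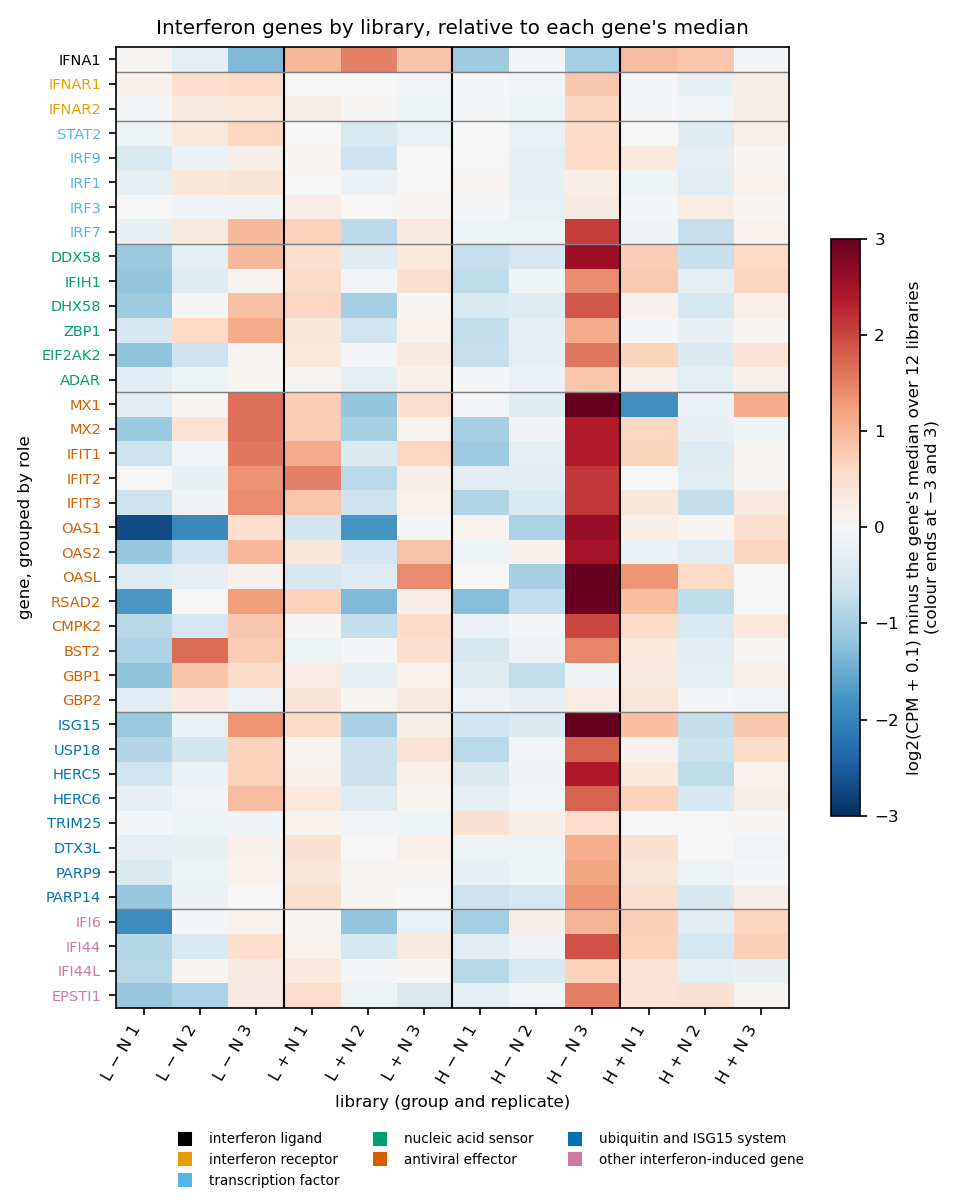
Each row is 1 of the 39 interferon genes with reads enough for testing, grouped by role, and each column is 1 library. The colour is log2(CPM + 0.1) minus the gene's median over the 12 libraries, with red for higher and blue for lower. H − N replicate 3 is red for most rows, with IFNA1 as the ligand row that is blue there, and L − N replicate 1 is blue for most rows.

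The spread between libraries of a group was larger for these genes than for most others. The median within-group SD of the log2 level was 0.74 over the 39 genes and 0.28 over all genes tested. Without H − N replicate 3 it was 0.56 and 0.26. Differences between the 4 group means held a median of 14.8% of the variance of the interferon genes and 42.8% of the variance of all genes. OASL had the highest within-group SD at 1.86, and RSAD2, MX1 and ISG15 followed at 1.53, 1.43 and 1.40.

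Each comparison was a contrast in one edgeR quasi-likelihood fit over 12 libraries, and a gene was called at an adjusted p under 0.05 (Benjamini-Hochberg over 15351 genes). For L + N against L − N, 1 of the 39 genes was called, IFNA1, while 9.60% of all genes were. For H − N against L − N, 1 was called, TRIM25, beside 5.27% of all genes. For H + N against L − N, 0 of the 39 were called beside 7.97% of all genes, and 1 (2.56%) had an unadjusted p under 0.05, as 27.5% of all genes did. The effect of NCG, which sets L + N and H + N together against both groups without NCG, called 1 interferon gene, IFNA1, beside 7.27% of all genes. The share called among the interferon genes was in each of these cases below that of all genes.

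The remaining comparisons called 0 interferon genes by edgeR. The effect of DF, which is the mean of both high-fiber groups against that of both low-fiber groups, called 0.0521% of all genes, and 3 interferon genes (7.69%) had an unadjusted p under 0.05, beside 19.5% of all genes. H + N against H − N, H + N against L + N and the interaction of DF and NCG each called 0% of all genes, and 3, 0 and 1 interferon genes (7.69%, 0% and 2.56%) had an unadjusted p under 0.05, beside 8.67%, 4.68% and 12.8% of all genes. DESeq2 on the same libraries called 0 interferon genes in these 3 comparisons, beside 0.306%, 0.013% and 1.97% of all genes. In H + N against L − N it also called 0, beside 17.5% of all genes. For the effect of DF it called 1 (2.56%), TRIM25, beside 7.32% of all genes. Comparisons that share a group, such as the 3 against L − N, are not independent of each other.

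IFNA1 (chromosome 1, 201515835 to 201516477, minus strand, Sscrofa11.1) encodes an interferon alpha, the secreted ligand of the type I receptor. Its level in CPM, the read count scaled to library size by TMM, was 2.23, 1.76 and 0.806 in the L − N libraries and 4.46, 6.46 and 4.06 in L + N. It was 0.985, 2.08 and 1.03 in H − N and 4.22, 3.96 and 2.15 in H + N. The L + N libraries were all above the L − N libraries, and the H + N libraries were all above the H − N libraries, although H + N replicate 3 lay just below the highest L − N library. These levels rest on 12 to 111 reads per library.

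The group means of IFNA1 were 1.60 ± 0.724 CPM in L − N, 4.99 ± 1.29 for L + N, 1.37 ± 0.619 for H − N and 3.44 ± 1.13 for H + N (SD, n = 3). Between L + N and L − N the log2 fold change was 1.64 (SE 0.452, edgeR adjusted p = 0.0442). For the effect of NCG over both diets it was 1.49 (SE 0.321, edgeR adjusted p = 0.0194). On the high-fiber diet alone, H + N against H − N, it was 1.34 (SE 0.455), with an edgeR adjusted p of 0.477 that did not pass.

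The call of IFNA1 depended on single libraries. With each of the 12 libraries left out in turn, the log2 fold change of L + N against L − N ran from 1.32 to 1.95, and the edgeR adjusted p from 0.0346 to 0.157, with the gene called in 5 of the 12 fits. The call was lost without L − N replicate 2 or 3, any of the L + N libraries, or H + N replicate 1 or 2. For the effect of NCG the range was 1.33 to 1.7, with edgeR adjusted p from 0.0201 to 0.06, and the call was kept in 9 fits and lost when replicate 2 of L + N or replicate 1 of either high-fiber group was left out.

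**Figure D2:**
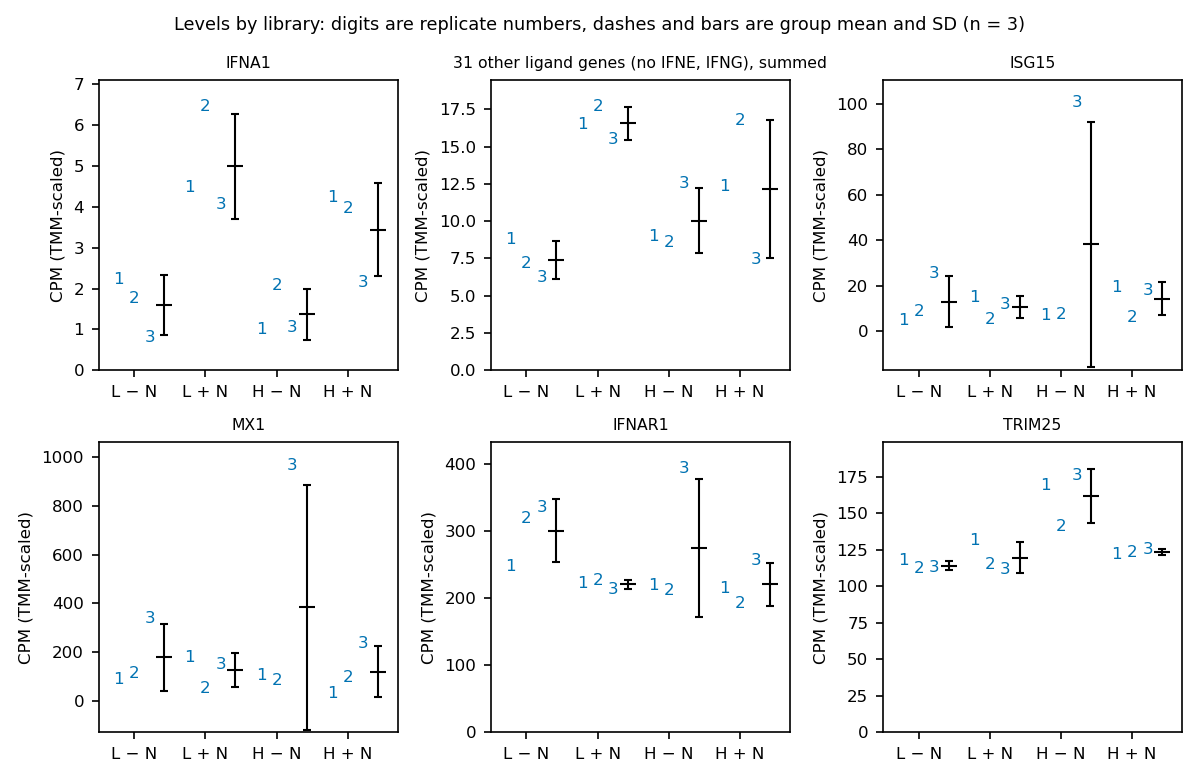
Each panel plots CPM by group for 1 gene, or for the sum of 31 ligand genes, with the digit giving the library's replicate number and the dash and bar giving the group mean and SD (n = 3). IFNA1 is higher in all 3 L + N libraries (4.06 to 6.46) than in the L − N libraries (0.806 to 2.23), ISG15 and MX1 are dominated by H − N replicate 3, and TRIM25 is higher in all 3 H − N libraries than in the other 9.

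IFNA1 is one of a family of near-identical genes, and reads that fit several copies make the value of any single copy uncertain. The table held 34 genes of interferon ligands, of which 14 were tested and 9 had at most 3 reads in every library, 2 of these none at all. Apart from IFNA1 and IFNG, the gene of type II interferon, 12 were tested. For L + N against L − N, 47.7% of all genes had a log2 fold change above 0 and 9.60% were called. All 12 ligand genes were above 0 there (median 1.66), of which 2 were called. IFN-DELTA-7 had a log2 fold change of 2.14 (SE 0.458, edgeR adjusted p = 0.0183), and IFN-ALPHA-5 had 1.66 (SE 0.439, edgeR adjusted p = 0.0384). For the effect of NCG, where 46.9% of all genes were above 0 and 7.27% were called, all 12 were again above 0 (median 0.93). Of the 12, 1 was called, IFN-DELTA-7, at 1.5 (SE 0.32, edgeR adjusted p = 0.0186). These genes were looked at after the value of IFNA1 had been seen, and reads shared with IFNA1 could move them together with it.

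The ligand genes other than IFNG and IFNE, 32 in all, were also summed per library, since a sum does not depend on how counted reads were split among copies. Such a sum would still miss reads that fit several copies if the counting left these out. The sum was 11.01, 8.90 and 7.05 CPM in L − N, against 21.0, 24.2 and 19.6 for L + N. It was 9.95, 10.7 and 13.6 for H − N, against 16.6, 20.7 and 9.57 for H + N. The L + N libraries lay above the other low-fiber libraries without overlap, whereas H + N replicate 3 had less than each H − N library.

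IFNE, which encodes interferon epsilon, had 0.700, 1.57 and 0.269 CPM in L − N, against 3.01, 4.43 and 2.68 for L + N. It had 1.35, 0.694 and 3.10 for H − N, against 4.75, 1.79 and 3.50 for H + N. Its log2 fold change for L + N against L − N was 1.98 (SE 0.662), with an edgeR adjusted p of 0.0822. IFNB1, the interferon beta gene, had 1 read over the 12 libraries.

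The ligand genes have no introns as a rule, and in the table the annotated length was the same as the span for 32 of the 34, IFNA1 included. Reads on such a gene cross no splice junction, so that by themselves they do not tell RNA from DNA. The other genes of this form with 1 to 576 reads in all, 576 being the total of IFNA1, were therefore summed. These 600 genes held 154 to 156 CPM in L − N and 176 to 189 in L + N, without overlap, and 155 to 173 in H − N and 169 to 181 in H + N. Of them 104 were tested, with a median log2 fold change of 0.36 for L + N against L − N and of 0.16 for the effect of NCG, against 1.64 and 1.49 for IFNA1.

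The 1161 genes annotated as olfactory receptors, which have no known role in this tissue, had 23.4 to 23.8 CPM in L − N, 25.8 to 32.3 in L + N, 20.5 to 27.5 in H − N and 21.6 to 31.2 in H + N. Those of them with no more reads than IFNA1 had 11.2 to 15.7 CPM in L − N, against 17.5 to 18.5 for L + N, 10.4 to 13.8 for H − N and 12.8 to 22.2 for H + N. These 3 sums were chosen after the values of IFNA1 had been seen. Each of the 3 sums was higher in L + N than in L − N without overlap, as IFNA1 was, and by a smaller factor. Their part in the IFNA1 result was not tested.

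The receptor genes were among the steadier of the list. IFNAR1 (chromosome 13, 196925731 to 196951398, plus strand) had 247, 319 and 335 CPM in L − N, against 222, 227 and 213 for L + N, 219, 211 and 393 for H − N and 215, 192 and 256 for H + N. The L + N libraries lay below all 3 L − N libraries, and H − N replicate 3 was the highest of the 12. The log2 fold change of L + N against L − N was −0.44 (SE 0.225, edgeR adjusted p = 0.223), and the effect of NCG was −0.38 (SE 0.159, edgeR adjusted p = 0.175). With H − N replicate 3 and L − N replicate 1 both left out, IFNAR1 was called lower than in L − N in L + N (−0.57), H − N (−0.60) and H + N (−0.57), with edgeR adjusted p of 0.0193, 0.0237 and 0.0203. This setting was chosen after the values were seen.

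IFNAR2, the chain that binds interferon with high affinity, had 65.2 CPM at the lowest and 115 at the highest, which was again in H − N replicate 3. The level of IFNAR2 in the other 11 libraries ran up to 90.9 CPM. It overlaps a gene on the opposite strand, and the sources used here do not give the strand setting of the counting.

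The subunits of ISGF3 on the list, IRF9 and STAT2, passed in no comparison with all 12 libraries. IRF9, the subunit that binds DNA, had 50.2, 60.8 and 77.4 CPM in L − N, against 70.9, 44.5 and 69.2 for L + N, 68.0, 55.6 and 103 for H − N and 84.1, 56.2 and 71.98 for H + N. All 4 groups overlapped. The log2 fold changes against L − N were −0.03 (SE 0.262) in L + N, 0.27 (SE 0.262) in H − N and 0.17 (SE 0.262) in H + N, with edgeR adjusted p of 0.955, 0.571 and 0.715.

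STAT2, which overlaps IL23A on the other strand, had 143, 196 and 243 CPM in L − N, against 161, 116 and 139 for L + N, 159, 138 and 234 for H − N and 159, 124 and 176 for H + N. The highest library was L − N replicate 3, and the groups overlapped. Its log2 fold change for L + N against L − N was −0.49 (SE 0.24, edgeR adjusted p = 0.212). In the fit without L − N replicate 1 and H − N replicate 3 it was −0.67 (edgeR adjusted p = 0.0385).

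Among the interferon regulatory factors, IRF1 and IRF3 varied little, IRF1, which overlaps SLC22A5, with 55.6 to 90.0 CPM and IRF3, which is made without interferon and activated by the sensors, with 29.8 to 40.9. IRF7, the inducible factor that amplifies interferon alpha genes, had 8.40, 12.04 and 19.5 CPM in L − N, against 15.9, 5.71 and 11.97 for L + N, 8.96, 8.88 and 41.9 for H − N and 9.23, 6.08 and 10.6 for H + N. The H − N mean of IRF7 thus came mainly from replicate 3. Against L − N, the log2 fold change in H + N was −0.62 (SE 0.602, edgeR adjusted p = 0.539).

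Of the 6 sensors of nucleic acid, 5 were highest in H − N replicate 3. DDX58, which encodes RIG-I and overlaps ACO1 on the opposite strand, had 26.9, 30.6 and 256 CPM in H − N and 19.9 to 84.8 in the other 9 libraries. IFIH1, which encodes MDA5, a sensor of long double-stranded RNA, had 12.03, 20.5 and 28.5 CPM in L − N, against 39.7, 25.6 and 37.9 for L + N, 15.8, 24.6 and 71.8 for H − N and 46.9, 22.2 and 42.4 for H + N. It had the second highest log2 fold change of the list, after IFNA1, for L + N against L − N (0.76, SE 0.512, edgeR adjusted p = 0.363), and L + N replicate 2 was below L − N replicate 3. DHX58, EIF2AK2 and ADAR, which encode LGP2, the kinase PKR and an enzyme that edits double-stranded RNA (ADAR overlaps CHRNB2), were likewise highest in H − N replicate 3, with 71.5, 419 and 213 CPM there and at most 36.2, 224 and 130 in the other libraries. ZBP1 was as high in L − N replicate 3 (38.2 CPM) as in H − N replicate 3 (38.1 CPM).

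The antiviral effectors had the widest ranges. MX1, a dynamin-like GTPase (chromosome 13, 204843049 to 204868927, plus strand), had 85.4, 110 and 337 CPM in L − N, against 179, 47.5 and 148 for L + N, 104, 83.4 and 965 for H − N and 29.6, 95.01 and 232 for H + N. All groups overlapped, and the highest and the lowest library were 32.6-fold apart. The log2 fold change was 1.11 (SE 0.988) for H − N against L − N and −1.69 (SE 1.0) for H + N against H − N, with edgeR adjusted p of 0.522 and 0.652. MX1 was the 1 gene of the 39 with its lowest value in H + N replicate 1. RSAD2 had 64.9 CPM in that library, a value exceeded in 2 other libraries.

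RSAD2, the gene of viperin, which makes a nucleotide that stops viral RNA synthesis, had 10.4, 35.1 and 82.6 CPM in L − N, against 56.4, 13.9 and 39.04 for L + N, 14.3, 20.7 and 271 for H − N and 64.9, 20.6 and 34.5 for H + N. OASL, a relative of the oligoadenylate synthetases, had at most 2.29 CPM in 11 libraries and 41.9 CPM in H − N replicate 3. Its fitted log2 fold change for H − N against L − N, 4.36 (SE 1.47, edgeR adjusted p = 0.102), therefore described that 1 library, since the other H − N libraries had 0.777 and 0.347 CPM and the L − N libraries 0.573 to 0.873.

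The oligoadenylate synthetases make the second messenger that activates RNase L. OAS1, which overlaps RPH3A on the same strand, had 4.84, 8.28 and 45.1 CPM in L − N, against 21.7, 9.26 and 30.3 for L + N, 34.3, 16.3 and 196 for H − N and 35.7, 33.2 and 44.0 for H + N. Its effect of DF was 1.48 on the log2 scale (SE 0.655, edgeR adjusted p = 0.245), and both diets overlapped. OAS2 had 142, 169 and 858 CPM in H − N and 70.4 to 311 in the other libraries.

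The genes IFIT1, IFIT2 and IFIT3, whose proteins bind foreign RNA, had 164, 137 and 176 CPM in H − N replicate 3 and at most 94.3, 91.1 and 109 elsewhere. They lie against LIPA on the opposite strand. IFIT2 had the lowest log2 fold change of the list for H + N against L + N (−0.67, SE 0.724, edgeR adjusted p = 0.948). MX2 and CMPK2 were also highest in H − N replicate 3, with 78.1 and 109 CPM.

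BST2, GBP1 and GBP2 were not highest in that library. BST2, the gene of tetherin, had 23.6, 145 and 76.5 CPM in L − N, against 40.5, 44.1 and 62.9 for L + N, 32.3, 41.7 and 125 for H − N and 55.9, 36.0 and 45.9 for H + N. GBP1, a guanylate-binding protein gene with close relatives, had 48.1, 199 and 163 CPM in L − N, against 128, 94.0 and 118 for L + N, 86.4, 66.6 and 103 for H − N and 134, 91.6 and 122 for H + N. Both were highest in L − N replicate 2 and lowest in L − N replicate 1, so that the L − N group alone spanned the whole range of the 12 libraries. GBP2 had 18.4 to 30.0 CPM.

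With all libraries, neither BST2 nor GBP1 passed in any comparison. BST2 was −0.73 (SE 0.592, edgeR adjusted p = 0.451) for L + N against L − N, and GBP1 was −0.68 (SE 0.394, edgeR adjusted p = 0.315) for H − N against L − N. Without L − N replicate 1, GBP1 was called for H − N against L − N, at −1.08 (edgeR adjusted p = 0.00961). With H − N replicate 3 left out as well, BST2 was −1.17, −1.58 and −1.27 for L + N, H − N and H + N against L − N (edgeR adjusted p = 0.0264, 0.0149 and 0.0211). In that fit GBP1 was −0.67 for L + N against L − N and −1.24 for H − N against L − N (edgeR adjusted p = 0.0459 and 0.00802), and ZBP1 was −1.37 for H − N and −0.95 for H + N against L − N (edgeR adjusted p = 0.0224 and 0.0484).

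The calls of that fit rest on 2 libraries each in L − N and H − N. It called 12.8%, 12.8% and 7.69% of the interferon genes for L + N, H − N and H + N against L − N, where 15.8%, 12.6% and 14.6% of all genes passed. The libraries left out had been seen to be low and high for these genes, so the calls are a description of how the values move and no independent evidence. Markers of macrophages, 10 genes with none at 0, summed to 1383 CPM in L − N replicate 1, to 3475 and 3590 in the other L − N libraries, and to 713 to 1648 in the other groups. Their part in the levels of IFNAR1, STAT2, BST2, GBP1 and ZBP1 was not tested.

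ISG15 (chromosome 6, 63363201 to 63364211, plus strand), the ubiquitin-like modifier, which overlaps LOC110261384 on the opposite strand, had 4.58, 8.72 and 25.5 CPM in L − N, against 14.7, 5.06 and 11.6 for L + N, 6.79, 7.42 and 100 for H − N and 19.0, 6.08 and 17.8 for H + N. H − N replicate 3 was far above the other 11 libraries, and the groups overlapped. The log2 fold change for H − N against L − N was 1.56 (SE 0.988, edgeR adjusted p = 0.357), and for L + N against L − N it was −0.30 (SE 0.981, edgeR adjusted p = 0.874). HERC5, the ligase that attaches ISG15, and USP18, the protease that removes it and dampens the receptor, were 6.37-fold and 4.56-fold higher in H − N replicate 3 than in the mean of the other H − N libraries. HERC6, of the same ligase family, had 398 CPM there and at most 221 elsewhere.

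TRIM25 (chromosome 12, 33184039 to 33212440, minus strand), a ubiquitin ligase that acts on RIG-I, was the exception among them. It had 117, 112 and 113 CPM in L − N, against 132, 115 and 112 for L + N, 169, 141 and 176 for H − N and 122, 123 and 125 for H + N. Each of the 3 H − N libraries lay above the other 9. The mean was 114 ± 2.93 CPM in L − N and 162 ± 18.5 in H − N (SD, n = 3), and the log2 fold change was 0.51 (SE 0.108, edgeR adjusted p = 0.0297). It was 1.42-fold higher, under the 2-fold threshold of the study.

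Leaving out each library in turn gave a log2 fold change of TRIM25 from 0.44 to 0.60, and edgeR adjusted p from 0.0198 to 0.116, with the gene called in 8 of the 12 fits. The call was lost without L − N replicate 2 or 3 and without H − N replicate 1 or 3. H + N against H − N was −0.39 (SE 0.108, edgeR adjusted p = 0.451), the smallest p of the list in that comparison. The effect of DF was 0.28 (SE 0.0761, edgeR adjusted p = 0.104), and with DESeq2 it was 0.27 with an adjusted p of 0.0165. The interaction of DF and NCG was −0.46 (SE 0.152, edgeR adjusted p = 0.294).

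The genes DTX3L and PARP9, which encode a complex and overlap head to head on opposite strands, were highest in H − N replicate 3 as well (62.8 and 132 CPM), with 24.8 to 40.8 and 43.0 to 75.5 CPM in the other libraries. PARP14 had 161 CPM there and 29.5 to 89.6 elsewhere. IFI6, a membrane protein gene, had 59.5, 216 and 235 CPM in L − N, against 224, 98.1 and 191 for L + N, 108, 252 and 444 for H − N and 360, 173 and 344 for H + N. It had the smallest p of the list for H + N against L + N (log2 fold change 0.77, SE 0.57, edgeR adjusted p = 0.916), and the groups overlapped. IFI44, IFI44L and EPSTI1 had 247, 265 and 106 CPM in H − N replicate 3 and at most 109, 214 and 53.5 elsewhere.

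H − N replicate 3 was next set against the mean of H − N replicates 1 and 2. It had been picked for its high values of these same genes, so high ratios follow in part from that choice. The median ratio over the 39 genes was 3.65, with 28 genes (71.8%) over 2, while among all genes the median was 1.01 and 5.9% were over 2. The ratio was 74.6 for OASL, 15.5 for RSAD2, 14.1 for ISG15 and 10.3 for MX1. By role, the median was 6.92 over 13 antiviral effectors, 3.86 over 6 sensors, 3.77 over 8 genes of the ubiquitin and ISG15 system, 2.86 over 4 other induced genes, 1.58 over 5 transcription factors and 1.76 over both receptor chains. The ligand IFNA1 had a ratio of 0.675, on 15 reads in that library. The other ligand genes went both ways. IFNE, another type I ligand, had a ratio of 3.04. The 32 ligand genes together summed to 13.6 CPM there against 9.95 and 10.7 in H − N replicates 1 and 2. In H − N replicates 1, 2 and 3, IFN-OMEGA-2 had 5, 2 and 35 reads. IFN-DELTA-2, in contrast, had 30, 14 and 8, and IFN-OMEGA-3 had 7, 12 and 4. The remaining low ratios were those of TRIM25 (1.14), IRF1 (1.20), IRF3 (1.29), GBP2 (1.30) and GBP1 (1.35).

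**Figure D3:**
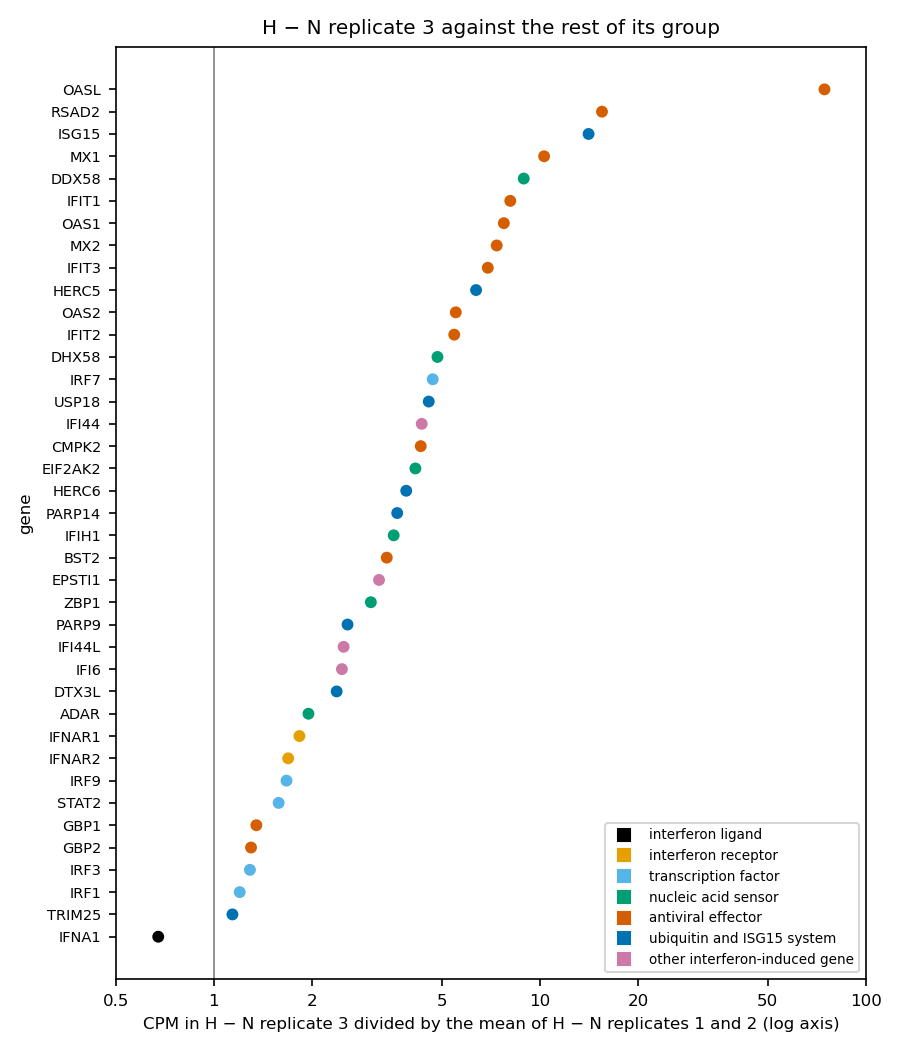
Each point is 1 gene, placed on a log axis at its CPM in H − N replicate 3 divided by the mean CPM of H − N replicates 1 and 2, with the colour giving its role. Ratios run from 0.675 for IFNA1 to 74.6 for OASL, the antiviral effectors lie mostly to the right, and the receptors and most transcription factors lie under 2.

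Other interferon-induced genes, from a further list of the pathway, were also high in that library. CXCL11, a chemokine for T cells, had 161 CPM in H − N replicate 3 and at most 3.51 CPM in each other library. ISG20 and DDX60 had ratios of 17.4 and 9.66, and CXCL10, another chemokine, had 5.82. Of the 49 further interferon-induced genes tested, 19 had a ratio over 2, with a median of 1.67. IFNG was at 0.345 CPM there, against 0.933 and 0.486 in the other H − N libraries. These genes were singled out after their values were seen.

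The summed markers of several cell types also stood high in that library. The 5 neutrophil markers in the table summed to 172 CPM in H − N replicate 3, 11.5 and 4.92 in the other H − N libraries, 8.02 to 49.6 in L − N, 9.68 to 101 in L + N and 4.73 to 16.6 in H + N, and none of the 5 was at 0 over all libraries. The T and NK cell markers summed to 155 CPM in H − N replicate 3 and to 154 and 128 in the other H − N libraries. The 8 B and plasma cell markers summed to 569 CPM there, against 119 and 180 in H − N replicates 1 and 2, although L − N replicate 1 had 807. The 8 markers of glandular and luminal epithelium summed to 2292 CPM and the 7 stromal markers to 50990, each the highest of the 12 libraries. The stromal sum came mainly from COL3A1 (30250 CPM) and COL1A1 (14850 CPM). The median deviation of the stromal markers there was −0.32 on the log2 scale, and VIM, at 862 CPM, was at its lowest of the 12 libraries. The macrophage markers were at their lowest there, at 713 CPM. The part of these cells in the levels of the interferon genes was not tested.

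H − N replicate 3 decided the sign of the list in 5 of the 8 comparisons. The library had been picked after its values of these genes were seen, so the shifts without it follow in part from that choice. For H − N against L − N the median log2 fold change of the 39 genes was 0.51, with 31 genes above 0 and 8 below, and the median of all genes was 0.03. Without that library it was −0.29, with 6 above and 33 below. For H + N against H − N it was −0.39 (6 above and 33 below) and became 0.39 (36 above and 3 below). The effect of DF went from 0.23 to −0.15, the effect of NCG from −0.35 to 0.18, and the interaction from −0.61 to 0.42.

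Because the fit held a mean per group, leaving out an H − N library could hardly move the comparisons without that group, which kept their medians. They were 0.05 for L + N against L − N, 0.10 for H + N against L − N and 0.01 for H + N against L + N, near those of all genes (−0.02, 0.02 and 0.01). L − N replicate 1 bore on the first and second of these, which were −0.26 and −0.16 without it, and L − N replicate 3 did so the other way, with 0.46 and 0.37 without it. No test was run on the list as a whole.

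**Figure D4:**
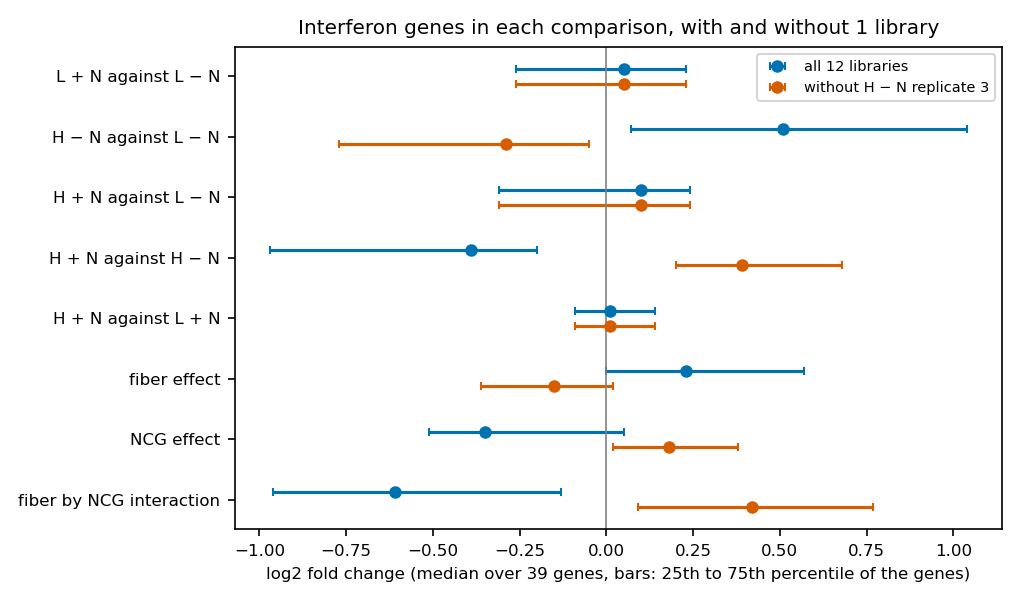
For each comparison, the point is the median log2 fold change of the 39 interferon genes and the bar runs from the 25th to the 75th percentile of the genes. Blue uses all 12 libraries and orange leaves out H − N replicate 3, which moves the median for H − N against L − N from 0.51 to −0.29 and for H + N against H − N from −0.39 to 0.39.

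Per gene length, as the deposited FPKM gives it, the list covered a wide span. IFI6 was the highest, with a mean of 288 FPKM over the 12 libraries, followed by BST2 at 112, MX1 at 75.4 and IFNAR1 at 69.3. The lowest with reads were OASL at 3.19 FPKM, IFNA1 at 4.51, IRF7 at 6.39 and DTX3L at 6.56. The order of MX1, IFNAR1 and IFI44 (63.8 FPKM) is not firm, since MX1 ran from 11.4 to 351 FPKM and IFI44 from 28.2 to 182. The receptors and IRF1, IRF3 and TRIM25 held a narrow place, with 1.42-fold to 1.87-fold between their lowest and highest library.

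**Figure D5:**
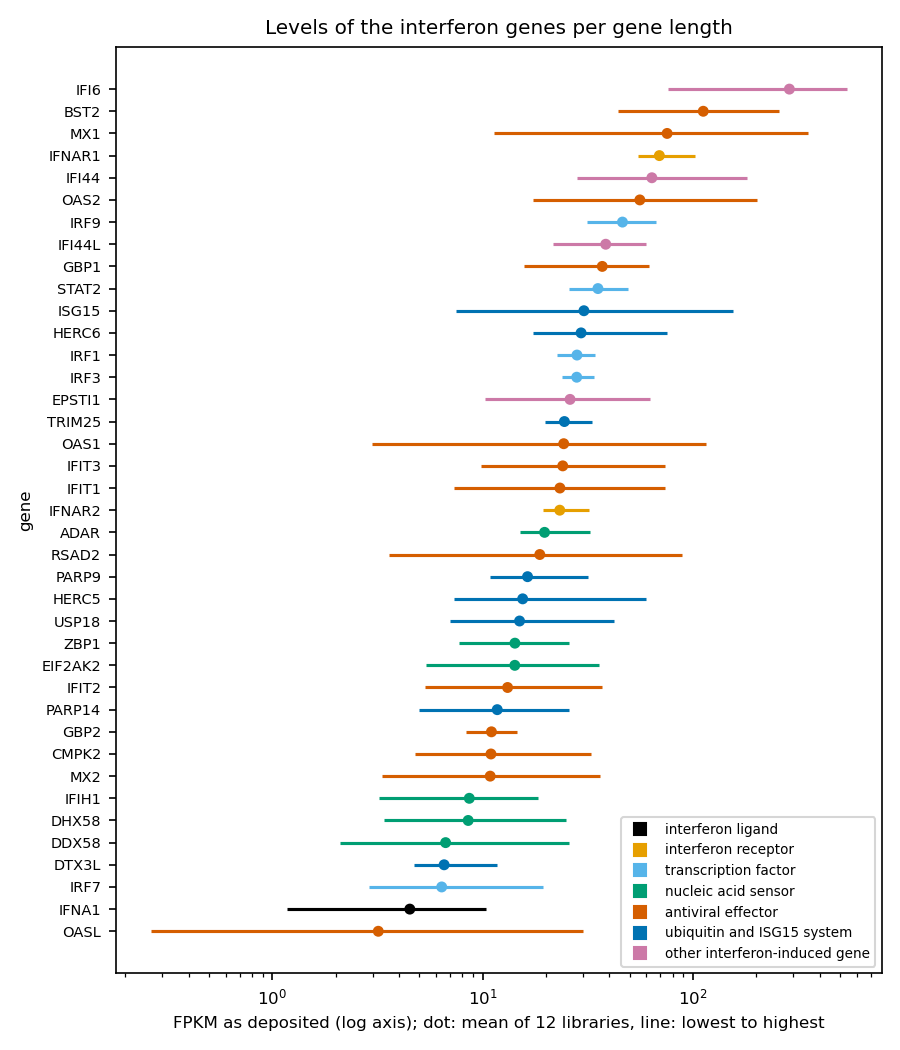
Genes are ordered by mean FPKM over the 12 libraries (dot), on a log axis, with a line from the lowest to the highest library and the colour giving the role. IFI6 is highest at 288 FPKM, OASL is lowest at 3.19 FPKM with the longest line, and IRF3, IRF1, IFNAR1, IFNAR2 and TRIM25 have short lines.

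The pathway was also followed in a list of 97 further genes of interferon ligands, receptors, kinases, sensors, regulatory factors and induced genes, of which 81 were matched and 78 tested. For L + N against L − N, 0 were called higher and 3 lower. They were IFNGR1, a chain of the interferon gamma receptor (−0.68, edgeR adjusted p = 0.0323), the kinase JAK1 (−0.49, edgeR adjusted p = 0.0269) and TRAFD1, a negative regulator of innate signaling (−0.44, edgeR adjusted p = 0.0257). For H − N against L − N 6 were called lower, and for H + N against L − N 4 were. In the other comparisons 0 were called by edgeR, with 19 (24.4%) at an unadjusted p under 0.05 for the effect of NCG, 15 (19.2%) for DF, 9 (11.5%) for H + N against H − N, 0 for H + N against L + N and 8 (10.3%) for the interaction. Among all genes these shares were 23.6%, 19.5%, 8.67%, 4.68% and 12.8%. For L + N, H − N and H + N against L − N, edgeR called 558, 569 and 562 of all 15351 genes lower. In either direction together it called 9.60%, 5.27% and 7.97% of all genes there.

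TLR7, an endosomal receptor for single-stranded RNA that lies upstream of interferon alpha, had 16.9, 46.3 and 53.4 CPM in L − N, 11.8, 10.2 and 12.1 in H − N, and 14.7, 16.4 and 9.93 in H + N. Its log2 fold change was −1.77 (SE 0.408, edgeR adjusted p = 0.0354) for H − N and −1.51 (SE 0.404, edgeR adjusted p = 0.0452) for H + N against L − N, and L − N replicate 1 was just above the highest H + N library. TLR9 was also called lower in both, while IRF5 and IRF8 were called lower in H − N (−1.24 and −1.41, edgeR adjusted p = 0.0318 and 0.0445).

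IFNGR1 and TRAFD1 were called lower than in L − N in all 3 comparisons. IFNGR1 was −0.74 for H − N and −0.86 for H + N (edgeR adjusted p = 0.0354 and 0.0218), and TRAFD1 was −0.55 and −0.44 (edgeR adjusted p = 0.023 and 0.0313). TLR7, TLR9, IRF5 and IRF8 are genes of macrophages and dendritic or B cells. The macrophage markers summed to 713 to 1032 CPM in H − N and 1122 to 1407 in H + N, against 1383 to 3590 in L − N, and all 10 had a log2 fold change below 0 for H − N against L − N, with 7 called lower. Their part in the levels of these pathway genes was not tested.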

How the data were processed

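The 12 endometrium libraries were poly(A) RNA-seq. The authors deposited read counts per gene without normalization and FPKM made from these counts, which a recalculation matched within 1.91e-05 percent. Per the submitters' processing notes, fastp 0.22.0, HISAT2 2.1.0, HTSeq 0.9.1 and the build Sscrofa11.1 were used, and the strand setting of the counting is not given in the sources used here. Titles gave group and replicate.

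Counts were analysed in R 4.3.3 with edgeR 4.0.16 (filterByExpr, TMM, a mean per group, quasi-likelihood test, 8 residual degrees of freedom) and limma 3.58.1, with Benjamini-Hochberg adjustment over 15351 genes. CPM used TMM-scaled library sizes, log2 levels a prior count of 2. DESeq2 1.42.0, RLE scaling, other filters, the added fold threshold of the paper, the compared groups alone, a replicate block and each library left out were alternatives. The test was checked on simulated data. Total counts of 14369781 to 19309724 and a biological coefficient of variation of 0.269 mean that spread between libraries, not depth, limits most genes. Replicate pairs differed by a chi-square of 23.3 to 99.7 per gene, so no library was a duplicate.

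Genes were named when called, when they had the smallest p or the 2 highest or 2 lowest log2 fold changes in a comparison, or for their role (IFNA1, IFNAR1, IFNAR2, IRF9, STAT2, ISG15, MX1). Pathway genes were named when called, and some results on that list are not reported here. Other genes named by value were chosen after their values were seen. The members and lists were chosen with earlier results of these data known. Promoter sequences were not analysed here.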

Additional observations from a re-analysis of the deposited data

How the results depend on the processing

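The number of interferon genes called changed under few settings besides the loss of single libraries. It was 1 for L + N against L − N and 0 with the 2 groups alone, where 9.27% of all genes passed. It was 5 with L − N replicate 1 and H − N replicate 3 both left out, a setting chosen after the data were seen. For H − N against L − N it was 1, 0 with the 2 groups alone (0.0203% of all genes), 0 with the fold threshold and 5 with both libraries out. Both out also gave 3 for H + N against L − N, 2 for DF (BST2 and GBP1, lower) and 1 for the interaction (GBP1, above 0), while its calls among all genes were 15.8%, 12.6%, 14.6%, 8.14% and 2.67% in these 5 comparisons. DESeq2 gave 1 for DF, beside 7.32% of all genes. RLE scaling and the other filters left each of the 8 counts as it was. Over the fits that lacked 1 library, the number ran from 0 to 1 for L + N against L − N, from 0 to 2 for H − N against L − N, from 0 to 1 for the effect of NCG and from 0 to 0 for the others. In the first 3 of these, the share of all genes called ran from 1.33% to 12.6%, from 0% to 13% and from 3.35% to 7.9%. It reached 11.7% for H + N against L − N, 6.99% for DF and 2.81% for the interaction. The causes of these changes were not tested.

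Libraries with the same replicate number did not deviate together, since 3 of 18 such pairs had a correlation over 0.1 (range −0.322 to 0.283). The replicate number as a block is a fit with no pairing behind it. It gave 1 gene called for L + N against L − N, 1 for H − N against L − N and 1 for the effect of NCG. Beside these, 7.15%, 2.48% and 5.56% of all genes were called. For the other 5 comparisons it gave 0, with at most 4.76% of all genes called, and it changed no call of an interferon gene.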

Other observations

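The RefSeq gene list gives IFIT5 as a synonym of LOC100151816, which was not counted among the 40 genes because its symbol in the table differs. Its level was 40.4, 55.7 and 85.9 CPM in L − N, 69.4, 55.1 and 57.2 in L + N, 38.9, 52.2 and 96.8 in H − N, and 64.6, 46.2 and 59.9 in H + N, with the highest value in H − N replicate 3 and the second highest in L − N replicate 3.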
